A study of Rattus norvegicus with 30 samples.

Results

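The proteasome is the protease complex that degrades ubiquitin-tagged proteins, and its genes were followed here in rat liver cells in culture that received diisononyl phthalate (DINP), a phthalate ester used to soften plastics. The members were the probe sets whose single platform symbol begins with Psma, Psmb, Psmc, Psmd, Psme or Psmg. They numbered 59 of the 31042 probe sets without control probes, for 45 gene symbols. Psmc3ip and Psme3ip1 match the rule by name but encode proteins that are not subunits, and neither passed a test. The other 43 genes, each represented by its brightest tested probe set, are described below. A filter on dim probe sets left 56 of the 59 probe sets in the test, and each of the 43 genes kept at least 1. Probe sets annotated to several symbols were left out, so the constitutive catalytic subunit Psmb6 and the activator Psme3 have no value. RefSeq lists near copies of Psmb3 and Psmg4, named Psmb3l1 and Psmg4l1, whose transcripts the probes of Psmb3 and Psmg4 may also bind.

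Primary hepatocytes of male Sprague Dawley rats, bought frozen, were cultured on collagen with a layer of Matrigel and received the compound on the third day. The 6 groups of 5 arrays were vehicle (1% DMSO), DINP at 25 mM and DINP at 100 mM, each at 24 h and at 48 h. The unit mM is the one in the labels and could not be checked. Each array came from its own culture well. How many animals the cells came from is not stated in the labels, so p-values measure the spread between wells. Levels are the deposited array signals. Differences are on the log2(signal + 16) scale, each ± the standard error of limma for 5 wells a group, and a gene was called at a limma p under 0.05 after Benjamini-Hochberg adjustment over all tested probe sets.

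The 20S core is a barrel of stacked rings, with α subunits (Psma genes) in the outer rings and β subunits (Psmb genes) in the inner ones. Among the β subunits, Psmb5, Psmb6 and Psmb7 carry the proteolytic sites. Interferon-γ induces the immune counterparts Psmb8, Psmb9 and Psmb10, which replace Psmb5, Psmb6 and Psmb7 in newly built cores and favour peptides that MHC class I molecules present. The 19S regulator, made of ATPases (Psmc) and non-ATPases (most Psmd), recognises and unfolds ubiquitinated substrates. The PA28 activator (Psme1 and Psme2), also interferon-inducible, and PA200 (Psme4) open the core without the need for ubiquitin. Psmg1 to Psmg4 assemble the core, and Psmd5, Psmd9 and Psmd10 assemble the base of the 19S regulator. In mammals, constitutive proteasome genes are known targets of the factor Nfe2l1, and stress can raise core genes through Nfe2l2.

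The promoter windows of some constitutive, immune and activator genes show where 3 known motifs lie. RefSeq promoters of assembly GRCr8, which run 250 bases before to 50 bases after the gene start, were given for 39 of the 43 genes. They were searched on both strands for TGACNNNGC, the core of the antioxidant response element, for GAAA followed by any 2 bases and GAAA, the interferon-stimulated response element, and for CCAAT, the NF-Y box. The 5 windows below cover 150 bases before to 10 bases after the start, 5′ to 3′ on the gene's strand. They are shown for the core genes Psmb5 and Psmb3, the immune genes Psmb8 and Psmb10, and the activator gene Psme2, which were picked for holding a motif, and capitals mark matches to any of the 3 motifs.
Psmb5 (chr15:32047370-32047529, minus strand): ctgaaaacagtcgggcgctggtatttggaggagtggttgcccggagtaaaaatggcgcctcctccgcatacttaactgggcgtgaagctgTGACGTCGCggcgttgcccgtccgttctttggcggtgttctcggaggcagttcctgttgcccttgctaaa
Psmb3 (chr10:83193637-83193796, plus strand): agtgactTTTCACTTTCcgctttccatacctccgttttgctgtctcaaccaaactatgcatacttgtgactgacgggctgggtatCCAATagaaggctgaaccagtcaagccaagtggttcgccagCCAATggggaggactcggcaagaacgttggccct
Psmb8 (chr20:4657022-4657181, minus strand): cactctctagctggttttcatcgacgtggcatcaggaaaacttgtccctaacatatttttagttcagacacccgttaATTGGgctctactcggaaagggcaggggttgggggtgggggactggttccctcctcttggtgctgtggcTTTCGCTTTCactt
Psmb10 (chr19:50743283-50743442, minus strand): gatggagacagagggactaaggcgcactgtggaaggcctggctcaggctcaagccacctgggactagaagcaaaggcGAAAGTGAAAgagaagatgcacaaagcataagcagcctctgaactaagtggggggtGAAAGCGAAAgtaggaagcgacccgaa
Psme2 (chr15:33052742-33052901, minus strand): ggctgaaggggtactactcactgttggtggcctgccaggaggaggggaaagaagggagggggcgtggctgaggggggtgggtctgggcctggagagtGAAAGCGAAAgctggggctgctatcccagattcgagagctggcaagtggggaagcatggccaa

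Psmb5 holds the antioxidant core at -60 to -52 from the start, as TGACGTCGC. Psmb10 holds the interferon element at -73 and again at -17, both on the gene's strand. Psmb8 has it across the start (-4 to 6) on the other strand, and Psme2 has it at -53. No match to it was found in the window of the immune Psmb9. The element was also present in 2 of the 12 constitutive core promoters (Psma4 and Psmb3), in 1 of 14 of the 19S regulator (Psmd7) and in 1 of 7 of the assembly chaperones (Psmg4), against 3.9% of all 33469 promoters. The antioxidant core occurred in 3 of 12 core promoters (Psma3, Psmb2 and Psmb5, not the catalytic Psmb7), in 2 of 14 of the 19S regulator (Psmd1 and Psmd3), in Psme4, in the chaperone Psmd9 and in 0 of 3 immune ones, against 12.1% of all promoters. The CCAAT box occurred in 9 of 12 core promoters, in 2 of 3 immune ones and in 5 of 14 of the 19S regulator, against 37.5% of all promoters. A match is a description of letters, and its absence says only that those letters are not in the window.

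The cells carried the hepatocyte markers, with the 7 of 8 on the array at a mean log2 signal of 15.59 (Apob) to 16.84 (Serpina1). Of these, Apob was called higher at 25 mM and 48 h and Fgb lower at 100 mM and 48 h. Both were called lower over time in vehicle wells. In the stellate and fibroblast list, Acta2 was called lower at 100 mM and 48 h. No tested lymphocyte or endothelial marker was called in a comparison with vehicle. Of 12 macrophage and leukocyte markers, 10 were on the array, and Ptprc (7.2), Cd163 (7.56) and Adgre1 (5.81) lay below the dimmest tested mean, 7.956. The other 7 were tested, with Cd14 at 14.22, Lyz2 at 13.06, Cd68 at 10.31, C1qa at 9.5, Clec4f at 8.7, C1qb at 8.61 and Cd74 at 8.24. Cd14 and Lyz2 made up most of the summed signal of the 10. That sum was 31795 to 36864 at 25 mM and 33303 to 34904 at 100 mM after 48 h. It was 28360 to 30809 in vehicle wells of that time. At 24 h it was 29836 to 32268 at 25 mM and 28197 to 30516 at 100 mM, against 28051 to 29244 in vehicle wells. In that list Cd14 was called higher in all 4 comparisons with vehicle and C1qb at both doses after 48 h, while Lyz2 was called lower at 25 mM at both times. The cholangiocyte marker Epcam was called lower at both doses after 48 h. The summed signal of the 4 cholangiocyte markers on the array was then 8810 to 11706 at 25 mM and 10439 to 12645 at 100 mM. It was 11848 to 14309 in vehicle wells. Epcam (13.28) made up most of that sum, as Krt19 (8.13), Spp1 (5.99) and Krt7 (5.21) were dim. Krt19, the only other one tested, was not called at 48 h, with a negative value at 25 mM and 0.33 at 100 mM. The part of such cells in the proteasome results was not tested, and fewer cells of a type and less RNA per cell cannot be told apart in these cultures. Replicate numbers in this text follow the order of the array numbers within each group, as the labels give none. Among the arrays, vehicle replicate 1 at 48 h was most often the one standing apart from its group (2.63% of the tested probe sets).

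DINP was followed by small rises in the constitutive 20S core and in PA28, with few changes in the 19S regulator and none called in the immune catalytic subunits. Only 3 immune genes were tested, too few for a count of 0 to set that class apart. At 24 h, 9 of the 43 genes rose and 0 fell at 25 mM, where 7.87% of all 10604 tested genes were called higher and 7.84% lower. At 100 mM and 24 h, 9 rose and 0 fell, against 7.54% of all genes called higher and 7.02% lower. At 48 h and 25 mM, 10 rose and 1 fell, against 9.78% higher and 12.1% lower. At 48 h and 100 mM, 9 rose and 0 fell, against 8.69% higher and 9.2% lower. The median log2 difference of the 43 genes was 0.11, 0.10, 0.06 and 0.08 in that order of comparisons, and that of all genes was -0.02, -0.03, -0.03 and -0.06.

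The share of genes called varied with brightness. Genes with a mean log2 signal of 13 or more, 1517 in all, were called higher in 25.1%, 25.4%, 29.9% and 31.1% of cases in the same 4 comparisons, and their medians were 0.07, 0.08, 0.05 and 0.08. Of the 13 core genes, 12 were that bright, as were both PA28 genes and 12 of 17 genes of the 19S regulator. The 3 immune subunits lay between 10.5 and 11.73. Among the 3784 genes at 10 to 12, 5.44%, 4.76%, 7.03% and 5.23% were called higher, and 10.3%, 9.41%, 16.1% and 11.8% lower, with medians of -0.03, -0.05, -0.07 and -0.08. The part of brightness in the class differences was not tested.

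**Figure D1:**
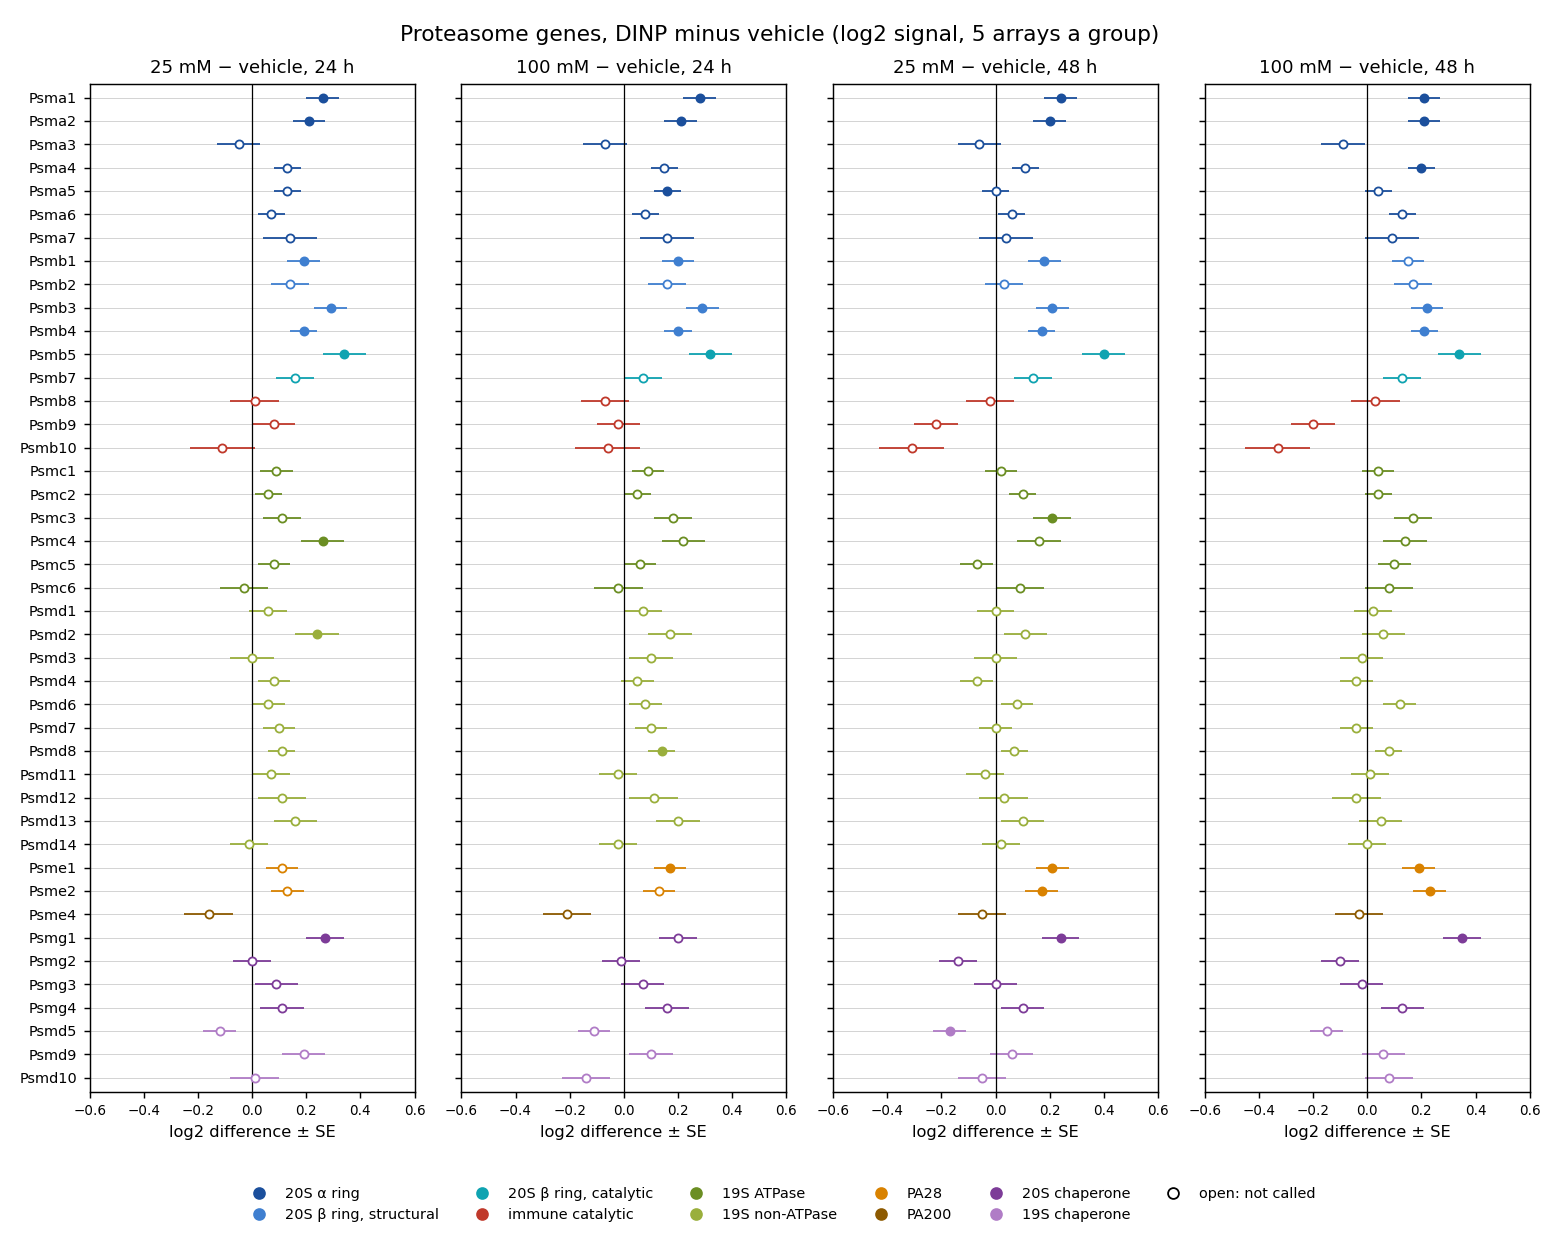
Log2 difference of DINP minus vehicle (x axis, ± SE, 5 arrays a group) for each of the 43 proteasome genes, by dose and time. Colours mark the class and filled points the genes called; Psmb5 lies at 0.32 to 0.40 in all 4 panels, whereas the red immune subunits are open in each.

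**Figure D2:**
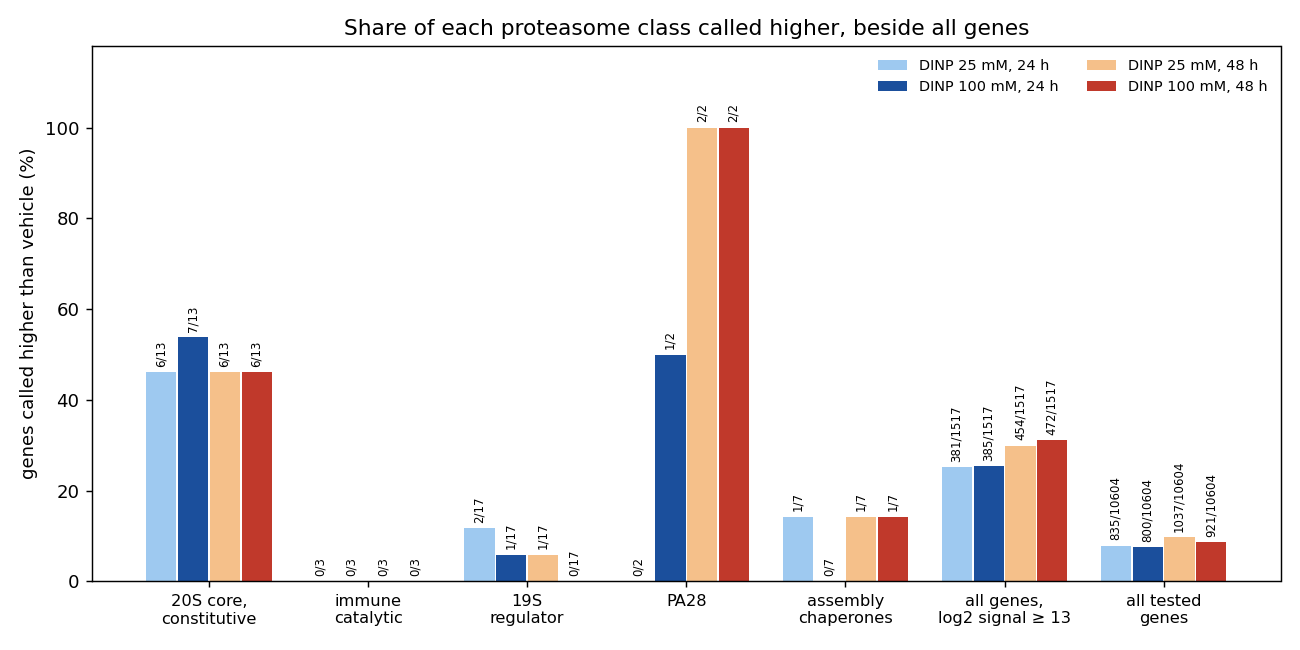
Percent of genes called higher than vehicle (y axis) in each proteasome class, beside bright genes and all tested genes, with the counts above the bars. The constitutive core stands at 6 or 7 of 13 in each comparison and the immune catalytic class at 0 of 3; PA200, a single gene, is not drawn.

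In the constitutive 20S core, 6 of 13 genes rose at 25 mM and 7 at 100 mM after 24 h, and 6 rose at each dose after 48 h. None of the 13 was called lower. The median log2 difference of the core was 0.16 and 0.16 at 24 h and 0.14 and 0.17 at 48 h, at 25 and 100 mM. Psma1, Psma2, Psmb3, Psmb4 and Psmb5 rose in all 4 comparisons, as did 503 of all tested genes (4.74%). The comparisons at one time share their vehicle wells.

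Psmb5, the chymotrypsin-like catalytic subunit, had the largest rise of the members at 25 mM at both times and at 100 mM after 24 h. At 24 h its signals were 30382, 25708, 28428, 26169 and 27739 in vehicle wells, 32166, 34895, 35520, 40717 and 31758 at 25 mM, and 33987, 34138, 35325, 35455 and 33505 at 100 mM. Every treated well lay above every vehicle well at that time, a separation upward that 6.39% of all genes showed at 25 mM and 6.57% at 100 mM. The 48 h signals were 41416, 27691, 32372, 31226 and 30981 in vehicle wells, 47605, 40832, 43139, 45076 and 37387 at 25 mM, and 39967, 45623, 39255, 42118 and 38834 at 100 mM. A single vehicle well, at 41416, overlapped the treated wells there. The log2 differences were 0.34 ± 0.08 (adjusted p = 0.00256) and 0.32 ± 0.08 (adjusted p = 0.00465) at 24 h, at 25 and 100 mM. At 48 h they were 0.40 ± 0.08 (adjusted p = 0.000311) and 0.34 ± 0.08 (adjusted p = 0.00207), or 1.32-fold and 1.27-fold. A dim second probe set of Psmb5 (mean log2 signal 8.42) was not called in any comparison, and the median over both probe sets ended the call in all 4, with a value of -0.03 (adjusted p = 0.95) at 100 mM and 24 h.

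Psmb3, a β subunit with no proteolytic site of its own, had signals at 24 h of 31677, 33529, 37454, 31769 and 31527 in vehicle wells, 36389, 42627, 41300, 43586 and 39578 at 25 mM, and 39219, 40378, 41732, 40510 and 41069 at 100 mM. At 100 mM the wells stood clear of the vehicle, and at 25 mM the lowest well, 36389, fell under the highest vehicle well, 37454. At 48 h its signals were 41740, 35391, 33924, 35854 and 37051 in vehicle wells, 43960, 37734, 43128, 42751 and 45342 at 25 mM, and 42954, 42416, 42501, 44867 and 41755 at 100 mM. The 100 mM wells again stood just clear of the vehicle, as did 6.51% of all genes upward, while the 25 mM wells overlapped it. Psmb3 rose by 0.29 ± 0.06 at both doses at 24 h (adjusted p = 0.000277 at 25 mM and 0.000345 at 100 mM). After 48 h the rises were 0.21 ± 0.06 (adjusted p = 0.00675) and 0.22 ± 0.06 (adjusted p = 0.00485).

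Psma1, of the α ring that gates the barrel, had signals at 24 h of 23972, 24761, 24484, 23239 and 21922 in vehicle wells, 27945, 28029, 29599, 29453 and 26311 at 25 mM, and 27342, 28995, 30558, 28319 and 28667 at 100 mM. No treated well overlapped the vehicle wells. At 48 h its signals were 28953, 26499, 27031, 24127 and 24858 in vehicle wells, 28834, 27381, 32772, 32966 and 34044 at 25 mM, and 30178, 28656, 28446, 30188 and 34175 at 100 mM, and some wells of each dose fell under the highest vehicle well. Its differences were 0.26 ± 0.06 and 0.28 ± 0.06 at 24 h and 0.24 ± 0.06 and 0.21 ± 0.06 at 48 h, with adjusted p between 0.00107 and 0.0157.

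Of the remaining core genes, the α subunit Psma2 and the β subunit Psmb4 rose by 0.17 to 0.21 in every comparison with vehicle. The β subunit Psmb1 rose by 0.19, 0.20 and 0.18 in 3 of them and stood at 0.15 (adjusted p = 0.108) at 100 mM and 48 h. Psma5 rose by 0.16 at 100 mM and 24 h and stood at 0.13 (adjusted p = 0.0979) at 25 mM, and Psma4 rose by 0.20 at 100 mM and 48 h. Psmb7, the trypsin-like catalytic subunit, was called in none of them. Psma3, Psma6, Psma7 and Psmb2 were not called either, and Psma3 alone in the core had negative values throughout, at -0.05 to -0.09. The calls of Psmb1 and Psma5 were lost under 9 to 14 of 21 alternative settings, which include leaving out single wells. Psmb4 at 25 mM and 48 h lost its call without DINP replicate 1 (0.15, adjusted p = 0.0504) or vehicle replicate 3 (0.14, adjusted p = 0.0647), and Psma1 at 100 mM and 48 h without vehicle replicate 4 (0.18, adjusted p = 0.0593) or DINP replicate 5 (0.16, adjusted p = 0.0674). Quantile normalisation brought Psma1, Psma2 and Psma4 to 0.10 at 100 mM and 48 h (adjusted p = 0.325, 0.205 and 0.17). It also ended the calls of Psma2 at 24 h (adjusted p = 0.106 at 25 mM and 0.097 at 100 mM) and at 25 mM and 48 h. Psma2 was then called in no comparison with vehicle. Psma1 lost its call with it at 25 mM and 24 h as well (adjusted p = 0.0563). Centring each array on its median left only Psma1 and Psmb5 of the 11 members called at 25 mM and 48 h.

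**Figure D3:**
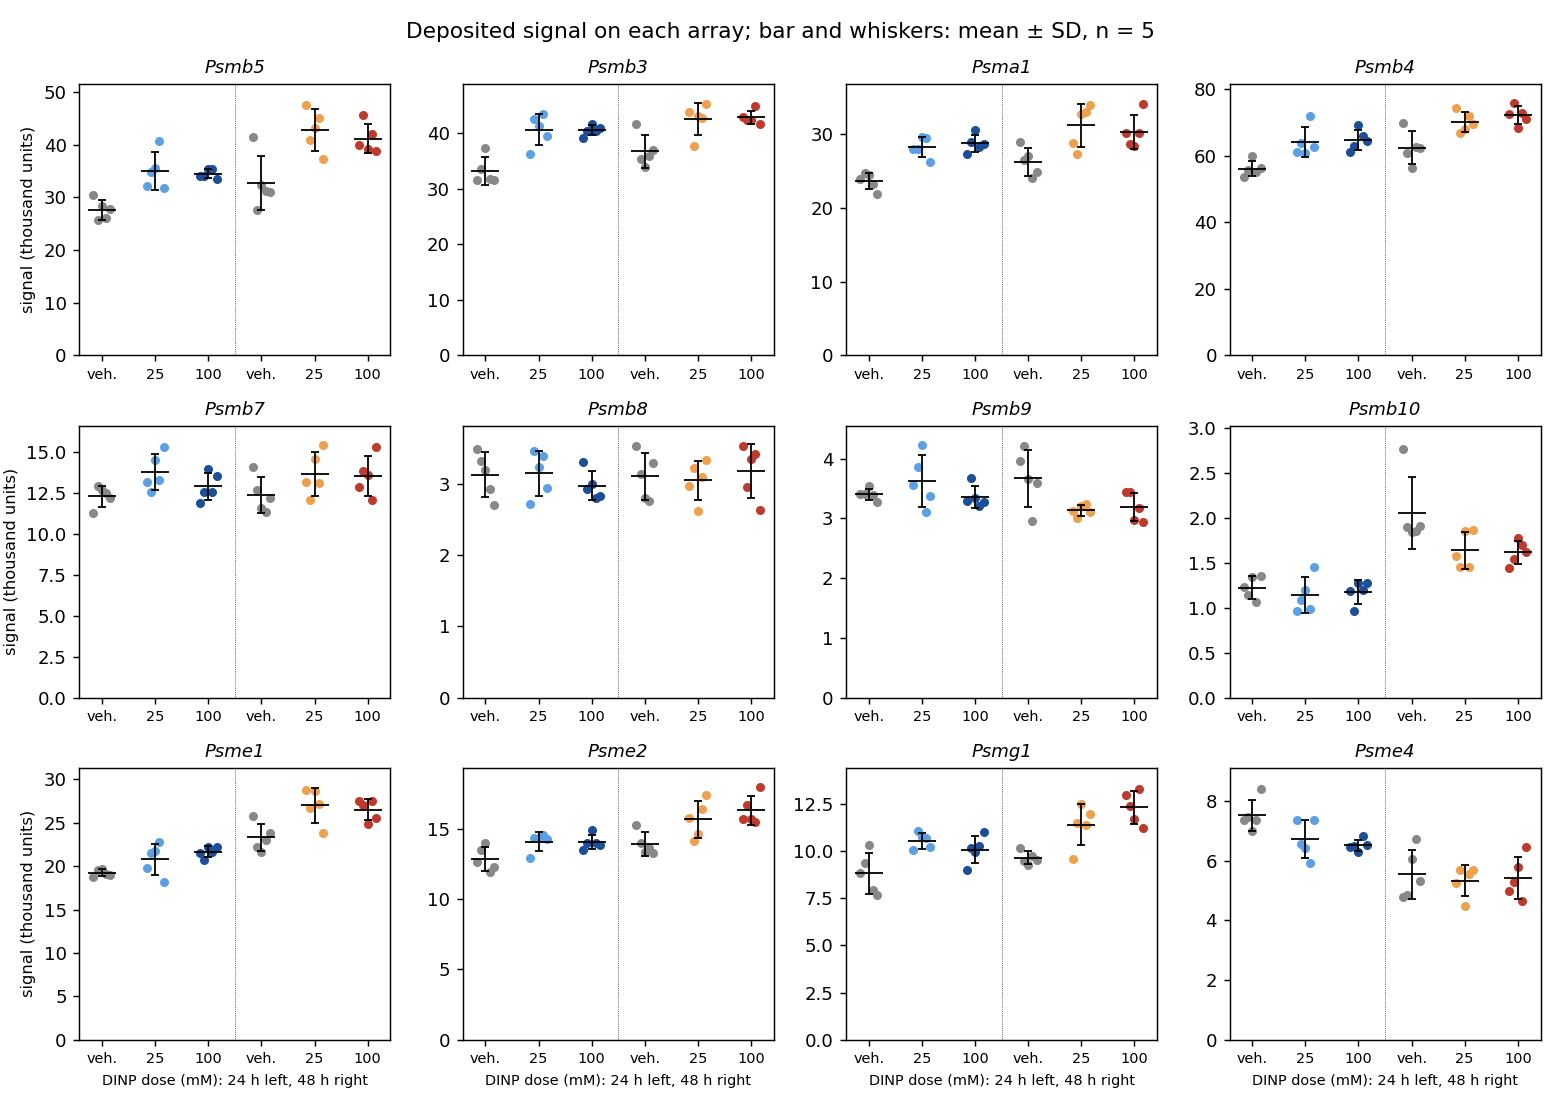
Deposited signal on a linear scale (y axis) on each array for 12 proteasome genes, with vehicle, 25 mM and 100 mM at 24 h on the left and at 48 h on the right of each panel; bars give mean ± SD, n = 5. Core genes such as Psmb5 and Psmb3 lie higher in the treated wells, Psmb8 averages 2976 to 3183 units in all 6 groups, and Psmb10 is highest in the 48 h vehicle wells.

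The immune catalytic subunits showed no called change with DINP. Of the genes at a mean log2 signal of 10 to 12, 4.76% to 7.03% were called higher and 9.41% to 16.1% lower. A count of 0 of 3 therefore does not set the class apart from genes of its brightness. None of the 3 was called in either direction in any comparison with vehicle (limma), and 2 of them, Psmb9 and Psmb10, had an unadjusted p under 0.05 at each dose at 48 h and 0 did at 24 h. Some alternatives called them lower at 48 h. With the array-number round as a block, Psmb10 was called at 25 mM (adjusted p = 0.0423) and 100 mM (adjusted p = 0.0373) and Psmb9 at 25 mM (adjusted p = 0.0347), and the filter at the 60th percentile called the same 3 (adjusted p = 0.0472, 0.0425 and 0.0388). Without vehicle replicate 4, Psmb9 was called at both doses (-0.29, adjusted p = 0.00505, and -0.27, adjusted p = 0.0113), and Psmb10 was called at 25 mM without DINP replicate 3 or 5 (-0.36, adjusted p = 0.0492 and 0.0447). The median over probe sets called Psmb9 at 25 mM (adjusted p = 0.0422) and Psmb10 at 100 mM (adjusted p = 0.0464). Psmb8 was called under none of its 21 alternatives in any comparison with vehicle. Psmb8, the immune counterpart of Psmb5, had signals at 24 h of 3498, 3328, 3194, 2937 and 2700 in vehicle wells, 2718, 3459, 3247, 3391 and 2944 at 25 mM, and 3312, 2927, 3002, 2811 and 2829 at 100 mM. By 48 h the signals were 3538, 3141, 2805, 2769 and 3296 in vehicle wells, 2978, 3226, 2623, 3095 and 3345 at 25 mM, and 3533, 2960, 3357, 3428 and 2636 at 100 mM. The 6 groups overlapped throughout, with log2 differences of 0.01 ± 0.09 and -0.07 ± 0.09 at 24 h and -0.02 ± 0.09 and 0.03 ± 0.09 at 48 h.

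Psmb9, the counterpart of the unmeasured Psmb6, had signals at 24 h of 3402, 3406, 3536, 3390 and 3270 in vehicle wells, 3550, 3858, 4227, 3113 and 3376 at 25 mM, and 3293, 3681, 3336, 3204 and 3270 at 100 mM. The 48 h values were 3956, 4216, 3661, 2948 and 3587 in vehicle wells, 3120, 3006, 3211, 3237 and 3107 at 25 mM, and 3436, 3435, 2968, 3172 and 2936 at 100 mM. At 48 h the treated wells averaged below the vehicle wells, and the groups overlapped through the lowest vehicle well, 2948. The differences at 48 h were -0.22 ± 0.08 (adjusted p = 0.0524) and -0.20 ± 0.08 (adjusted p = 0.0942), and at 24 h 0.08 ± 0.08 and -0.02 ± 0.08.

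Psmb10, the counterpart of Psmb7, had signals at 24 h of 1225, 1138, 1340, 1064 and 1355 in vehicle wells, 963, 1088, 1201, 990 and 1457 at 25 mM, and 1182, 958, 1279, 1194 and 1273 at 100 mM. The groups overlapped. After 48 h the values were 2762, 1896, 1839, 1857 and 1911 in vehicle wells, 1574, 1450, 1854, 1454 and 1864 at 25 mM, and 1436, 1539, 1776, 1701 and 1621 at 100 mM. The 100 mM wells all lay below the vehicle wells, as happened downward for 6.71% of all genes, and the 25 mM wells overlapped them narrowly. The differences at 48 h were -0.31 ± 0.12 (adjusted p = 0.0642) and -0.33 ± 0.12 (adjusted p = 0.058), neither called.

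Psmb7 itself had signals at 24 h of 11257, 12921, 12696, 12469 and 12159 in vehicle wells, 13164, 12539, 14504, 13317 and 15306 at 25 mM, and 11884, 12539, 13929, 12567 and 13538 at 100 mM. The 48 h signals were 14101, 12687, 11602, 11355 and 12178 in vehicle wells, 13142, 12054, 14567, 13087 and 15453 at 25 mM, and 12868, 13858, 13580, 12079 and 15330 at 100 mM. Its differences of 0.16 ± 0.07, 0.07 ± 0.07, 0.14 ± 0.07 and 0.13 ± 0.07 were positive in all 4 comparisons and passed the test in none (adjusted p between 0.144 and 0.625).

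The log2 ratio of an immune to its constitutive subunit within an array tests whether the pair changed unequally, and the ratio was tested over arrays by a two-sided exact permutation test, with p adjusted over 10 tests (2 pairs in 5 comparisons). With 5 arrays a group the smallest p is 0.0079. These pairs were tested with their separate values already seen. Psmb8 fell relative to Psmb5 at 24 h, by 0.33 at 25 mM and by 0.39 at 100 mM (exact permutation p = 0.016 and adjusted p = 0.032 for each). At 48 h the difference was -0.42 at 25 mM (exact permutation p = 0.032, adjusted p = 0.053) and -0.31 at 100 mM (exact permutation p = 0.04, adjusted p = 0.057). Psmb10 minus Psmb7 was lower than in vehicle wells at 48 h, by 0.45 at 25 mM and by 0.46 at 100 mM (exact permutation p = 0.0079, adjusted p = 0.026 for each). At 24 h its difference was -0.27 at 25 mM (exact permutation p = 0.048, adjusted p = 0.06) and -0.12 at 100 mM (exact permutation p = 0.26, adjusted p = 0.26). Its mean at 24 and 48 h was -3.32 and -2.6 in vehicle wells, -3.59 and -3.05 at 25 mM, and -3.44 and -3.06 at 100 mM. It was thus higher at 48 h in treated wells too, a change over time that was tested only in vehicle wells. In both pairs the immune probe set is the dimmer one, and the medians of dimmer and brighter genes given above differ in the same direction. The part of brightness in the ratios was not tested. At 24 h Psmb8 itself stood at 0.01 and -0.07, so its ratio moved mainly with the brightest probe set of Psmb5. With the median over both Psmb5 probe sets, Psmb5 stood at -0.03 (limma, adjusted p = 0.95) at 100 mM and 24 h. The ratios were not tested with other probe sets. Quantile normalisation brought Psmb8 minus Psmb5 to -0.22 and -0.26 at 24 h (exact permutation test, adjusted p = 0.04 for each) and to -0.27 (adjusted p = 0.14) and -0.14 (adjusted p = 0.34) at 48 h, at 25 and 100 mM. With it, Psmb10 minus Psmb7 stood at -0.33 (exact permutation test, adjusted p = 0.04) and -0.31 (adjusted p = 0.048) at 48 h and at -0.13 (adjusted p = 0.34) and 0.03 (adjusted p = 0.87) at 24 h.

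**Figure D4:**
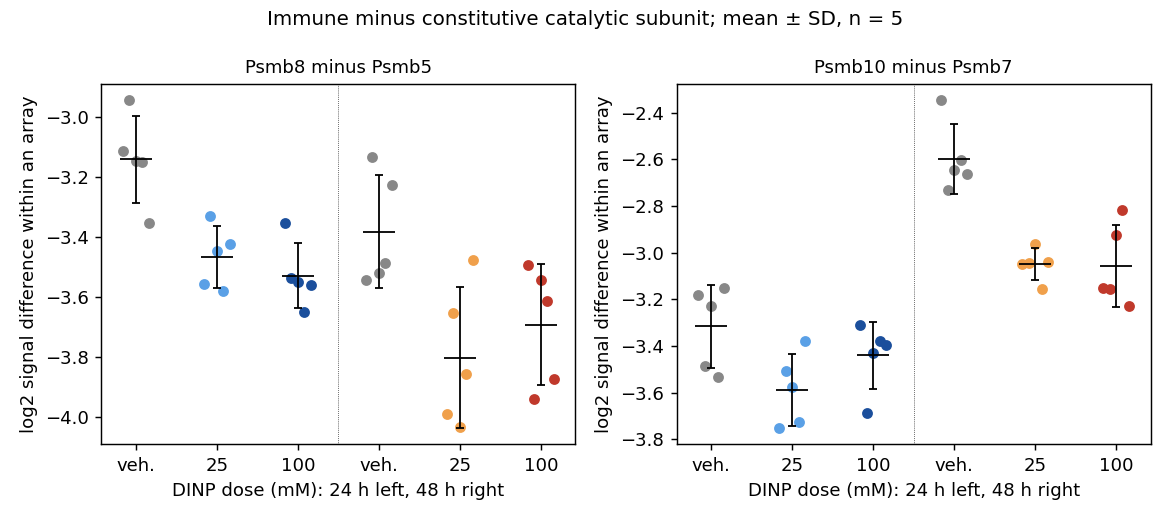
Log2 signal of the immune minus the constitutive catalytic subunit on each array (y axis) for Psmb8 with Psmb5 and Psmb10 with Psmb7, by dose and time, with mean ± SD (n = 5). The position on the axis depends on the probes; the shift between groups is what the panels compare, and Psmb10 minus Psmb7 lies between -3.16 and -2.96 at 25 mM and 48 h, below all vehicle wells of that time, which run between -2.73 and -2.35.

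Both PA28 genes rose at 48 h. Psme1, the α subunit of PA28, had signals at 24 h of 18706, 19560, 19716, 19125 and 19030 in vehicle wells, 19748, 21479, 21714, 22802 and 18220 at 25 mM, and 21517, 20656, 22257, 21634 and 22153 at 100 mM. The 100 mM wells stood clear of the vehicle at that time and the 25 mM wells did not. At 48 h its signals were 25764, 22232, 21675, 23029 and 23855 in vehicle wells, 28787, 26676, 28640, 27143 and 23797 at 25 mM, and 27518, 27066, 24862, 27507 and 25578 at 100 mM. The differences were 0.17 ± 0.06 (adjusted p = 0.0407) at 100 mM and 24 h, 0.21 ± 0.06 (adjusted p = 0.0067) at 25 mM and 48 h and 0.19 ± 0.06 (adjusted p = 0.0203) at 100 mM and 48 h. At 25 mM and 24 h the value was 0.11 ± 0.06 (adjusted p = 0.228).

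Psme2, the β subunit of PA28, whose promoter is printed above, had signals at 24 h of 12653, 13492, 13946, 11909 and 12267 in vehicle wells, 12938, 14359, 14303, 14510 and 14281 at 25 mM, and 13462, 13989, 14884, 13982 and 13853 at 100 mM. The doses overlapped the vehicle, with 0.13 ± 0.06 for each (adjusted p = 0.135 at 25 mM and 0.156 at 100 mM). At 48 h its signals were 15282, 14005, 13340, 13585 and 13237 in vehicle wells, 15735, 14088, 14646, 16367 and 17402 at 25 mM, and 15708, 16652, 15682, 15469 and 17922 at 100 mM. The 100 mM wells all lay above the vehicle wells. Psme2 rose by 0.17 ± 0.06 (adjusted p = 0.0361) at 25 mM and by 0.23 ± 0.06 (adjusted p = 0.00493) at 100 mM. Psme4 (PA200) had negative differences of -0.16, -0.21, -0.05 and -0.03, none called. At 100 mM and 24 h its wells ran from 6271 to 6807 and the vehicle wells from 6998 to 8393. In that comparison 7.02% of all genes were called lower. With only the compared groups fitted, Psme4 was called lower there (limma, adjusted p = 0.0215). The call of Psme1 at 100 mM and 24 h and that of Psme2 at 25 mM and 48 h were each lost under 12 of 21 alternatives. Psme1 at 25 mM and 48 h lost its call with median centring (0.21, adjusted p = 0.0666), quantile normalisation (0.13, adjusted p = 0.0791) and the median over its probe sets (0.45, adjusted p = 0.163), and that median gave 0.64 (adjusted p = 0.0422) at 100 mM. Psme1 at 100 mM and 48 h lost its call without DINP replicates 1 or 4 or vehicle replicates 2 or 3 (0.16 to 0.17, adjusted p up to 0.0700), and quantile normalisation brought it to 0.08 (adjusted p = 0.355).

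In the 19S regulator, 2 of 17 genes rose at 25 mM and 1 at 100 mM after 24 h, and 1 and 0 rose after 48 h. None fell. Of all genes, 7.87%, 7.54%, 9.78% and 8.69% were called higher in these comparisons. Of bright genes, 25.1%, 25.4%, 29.9% and 31.1% were. The class medians were 0.08, 0.09, 0.03 and 0.04, against 0.07, 0.08, 0.05 and 0.08 for bright genes. The ATPase Psmc4 rose by 0.26 ± 0.08 (adjusted p = 0.024) and Psmd2, the large scaffold subunit of the base, by 0.24 ± 0.08 (adjusted p = 0.0467) at 25 mM and 24 h. Psmd8, of the lid, rose by 0.14 ± 0.05 (adjusted p = 0.0412) at 100 mM and 24 h, and the ATPase Psmc3 by 0.21 ± 0.07 (adjusted p = 0.0337) at 25 mM and 48 h. The calls of Psmd2, Psmd8 and Psmc3 were lost under 12 or 13 of 21 alternatives, and that of Psmc4 without DINP replicate 3 or 5 or vehicle replicate 5 (0.22 to 0.24, adjusted p up to 0.0768). Psmd14, the deubiquitinase of the lid, stayed within -0.02 and 0.02, and the ubiquitin receptor Psmd4 within -0.07 and 0.08.

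Among the 7 assembly chaperones, Psmg1, which pairs with Psmg2 to start the α ring, was the gene that rose. Its signals at 24 h were 8818, 9371, 10330, 7933 and 7655 in vehicle wells, 10033, 11076, 10724, 10695 and 10239 at 25 mM, and 8992, 10157, 9969, 10278 and 11024 at 100 mM. The 25 mM wells overlapped the vehicle through its highest well, 10330, and the lowest 100 mM well, 8992, lay below both that and the vehicle well at 9371. By 48 h the signals were 10167, 9449, 9271, 9745 and 9545 in vehicle wells, 9607, 11496, 12489, 11382 and 11994 at 25 mM, and 12958, 12398, 11711, 13318 and 11225 at 100 mM. All 100 mM wells and all but 1 of the 25 mM wells lay above the vehicle wells. Psmg1 rose by 0.27 ± 0.07 (adjusted p = 0.00944) at 25 mM and 24 h, by 0.24 ± 0.07 (adjusted p = 0.0175) at 25 mM and 48 h, and by 0.35 ± 0.07 (adjusted p = 0.000554) at 100 mM and 48 h, the largest rise of the members there. At 100 mM and 24 h it stood at 0.20 ± 0.07 (adjusted p = 0.0652). The call at 25 mM and 48 h was lost without DINP replicate 3 (0.20, adjusted p = 0.0652). Its partner Psmg2 had values of 0.00, -0.01, -0.14 and -0.10, none called.

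Psmd5, a chaperone of the 19S base, was the member called lower. At 48 h its signals were 9850, 10136, 10397, 10356 and 10767 at 25 mM, against 13495, 11046, 10832, 11551 and 11070 in vehicle wells. The groups did not overlap, as was the case downward for 7.33% of all genes. Psmd5 fell by 0.17 ± 0.06 on the log2 scale (adjusted p = 0.0478), and its values in the other comparisons with vehicle were -0.12, -0.11 and -0.15, none called. Quantile normalisation called Psmd5 lower at 24 h too (limma, adjusted p = 0.0163 at 25 mM and 0.0273 at 100 mM). Without vehicle replicate 1, at 13495, the value was -0.11 (adjusted p = 0.182), and 10 of 21 alternatives kept the call. Psmd9 and Psmd10 were not called.

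No proteasome gene was called between the doses. None of the 43 genes was called between 100 and 25 mM at either time (limma), where 0.00943% of all genes were called at each time, and at an unadjusted p under 0.05 there were 0 at 24 h and 2 at 48 h (Psmc5 at 0.18 ± 0.06 and Psmb2 at 0.15 ± 0.07). The difference of the effect between 48 and 24 h was also called for 0 of 43 genes at each dose, against 0.358% of all genes at 25 mM and 0.113% at 100 mM. At an unadjusted p under 0.05 there was 1 gene at 25 mM, Psmb9 at -0.30 ± 0.11 (adjusted p = 0.409), and 0 at 100 mM. The rise of PA28 at 48 h was therefore not shown to differ from 24 h, nor were the negative values of Psmb9 and Psmb10 at 48 h, which were not called.

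In vehicle wells, the genes that moved with time were spread over the classes. At 48 h relative to 24 h, 8 of 43 genes rose and 1 fell, against 9.49% of all genes called higher and 7.92% lower. Of the 1517 genes with a mean log2 signal of 13 or more, 288 were called higher and 201 lower. Psmb10 rose by 0.73 ± 0.12 (1.65-fold, adjusted p = 5.71e-05), at 2762, 1896, 1839, 1857 and 1911 at 48 h against 1225, 1138, 1340, 1064 and 1355 at 24 h. The wells of the times did not overlap, as was so upward for 6.84% of all genes. Psmb8 and Psmb9 were at -0.01 ± 0.09 and 0.10 ± 0.08 and were not called. Psmb10 rose relative to Psmb7 by 0.72 (exact permutation p = 0.0079, adjusted p = 0.026), while Psmb8 minus Psmb5 differed by -0.24 (exact permutation p = 0.063, adjusted p = 0.071).

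Psmc3 had signals of 15795, 12099, 11482, 12964 and 13596 at 48 h against 9648, 9895, 10767, 9818 and 11203 at 24 h in vehicle wells, with no overlap, and rose by 0.35 ± 0.07 (adjusted p = 0.000506). Psme1 rose by 0.28 ± 0.06 (adjusted p = 0.000811), and its vehicle wells, given above, did not overlap between the times, but the median over its probe sets was -0.08. Psme4 fell by 0.45 ± 0.09 on the log2 scale (adjusted p = 0.000573), with 4772, 4851, 6050, 6713 and 5303 at 48 h against 7371, 7461, 6998, 7350 and 8393 at 24 h. A second probe set of Psme4 also fell, by 0.39 (adjusted p = 0.0293). The other calls were Psmb5 (0.23), Psmb4 (0.15), Psmc4 (0.24), Psmd3 (0.26) and Psmd8 (0.14), each lost under 9 to 13 of 21 alternatives, among them leaving out vehicle replicate 1 at 48 h. Without that array 4 genes were called in place of 9. Time in culture and time in vehicle passed together here.

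**Figure D5:**
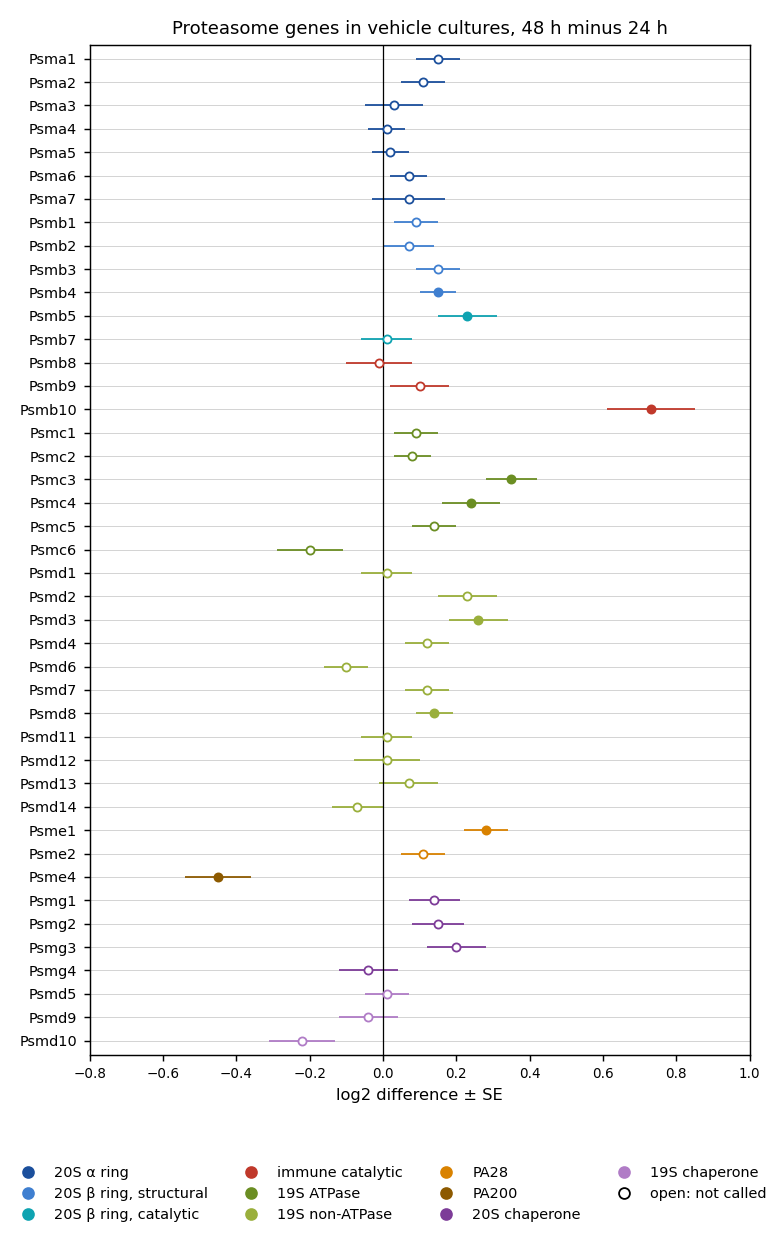
Log2 difference of vehicle wells, 48 h minus 24 h (x axis, ± SE, 5 arrays a group), for each of the 43 proteasome genes, coloured by class with filled points for called genes. Psmb10 lies far to the right at 0.73 and Psme4 to the left at -0.45, with the core between 0.01 and 0.23.

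Genes that work with the proteasome were called in both directions. The shares of all genes called in the same comparisons were 7.87%, 7.54%, 9.78% and 8.69% higher and 7.84%, 7.02%, 12.1% and 9.2% lower, and the counts below lay near them. Of 26 tested partners (ubiquitin shuttles, deubiquitinases, assembly and control factors), 1 rose and 3 fell at 25 mM and 24 h, 1 rose and 1 fell at 100 mM and 24 h, and 2 rose and 3 fell at each dose after 48 h. The shuttle Ubqln2 fell by 0.35 ± 0.09 at 25 mM and 24 h, by 0.34 ± 0.09 at 25 mM and 48 h and by 0.29 ± 0.09 at 100 mM and 48 h. Ecpas, a proteasome adaptor, fell by 0.33 ± 0.07 at 100 mM and 24 h, and was also called lower at 25 mM and 24 h and at 100 mM and 48 h. The 20S maturation factor Pomp rose by 0.14, 0.16 and 0.18 ± 0.05 at 100 mM and 24 h and at 25 and 100 mM after 48 h. Nfe2l1 was not called, at -0.01, -0.09, -0.01 and 0.07, and Nfe2l2 fell by 0.16, 0.23 and 0.15 in 3 of the 4 comparisons; these transcript levels say nothing of the activity of either factor. Pomp, Nfe2l1 and Nfe2l2 were named after their values were seen.

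Among 15 tested genes of MHC class I presentation and interferon control, 0 rose and 1 fell at each dose after 24 h, 0 rose and 4 fell at 25 mM and 48 h, and 1 rose and 3 fell at 100 mM and 48 h. Of all genes, 7.84% and 7.02% were called lower at 24 h and 12.1% and 9.2% at 48 h. The median differences of the 15 genes were -0.04, -0.08, -0.12 and -0.12. Erap1, which trims peptides in the endoplasmic reticulum, fell by 0.32, 0.29, 0.40 and 0.37 (± 0.07 each). Tap1, a peptide transporter, fell by 0.39 ± 0.13 (adjusted p = 0.0431) and Irf9, a factor of interferon signalling, by 0.31 ± 0.09 at 25 mM and 48 h. At 100 mM and 48 h Irf9 fell by 0.40 ± 0.09 and Jak1, an interferon receptor kinase, by 0.25 ± 0.07. B2m, the light chain of MHC class I, rose by 0.20 ± 0.06 (adjusted p = 0.0196) there and was named after its values were seen. In vehicle wells at 48 h relative to 24 h, 1 rose and 4 fell. The interferon-γ receptor chain Ifngr2 rose by 0.51 ± 0.08, Irf9 fell by 0.31 ± 0.09 and Erap1 fell by 0.29 ± 0.07.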

How the data were processed

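RNA of 30 wells was hybridised to Affymetrix rat expression arrays, 5 for each of 6 groups. Each probe set has 1 deposited linear intensity per array, which the authors computed by MAS5, a tool named in the submitters' processing notes without a version. Their 2% trimmed mean was 1500.65 to 1500.76 on every array, so they had been scaled before deposit. No detection calls were used. After 57 control probe sets were dropped, log2(signal + 16) was taken, which understates changes of dim genes, and probe sets at or above the 40th percentile of the mean were tested (18625, the dimmest at 7.956). Symbols came from the platform annotation, updated through the GRCr8 gene table. The brightest tested probe set stood for its gene (10604 genes).

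The tests used limma (version 3.58.1, R 4.3.3), with the 6 groups fitted together (24 residual degrees of freedom), empirical Bayes moderation with a trend, and Benjamini-Hochberg adjustment per comparison over all tested probe sets (threshold 0.05). Wells are single arrays, whose number limits the precision. The labels give no replicate numbers or batch, and array-number order served as an alternative block. Values on each array are given for the catalytic subunits, PA28 and the 3 called members with the largest rise or fall per comparison, and up to 3 called genes are named per pathway list. The members and lists were chosen with earlier results of these data known. The alternatives were the added constant, the dim filter, the scaling, the samples fitted, the variance trend, array weights, the block, the median over probe sets and leaving out each array. The fit was tested on simulated data.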

Additional observations from a re-analysis of the deposited data

Results flagged for a closer look

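Single wells stood apart from their 4 companions in 4 of 78 groups examined (13 genes in 6 groups), by a gap to the nearest well larger than Dixon's 95% critical share of the range; chance gives about 1 in 20 groups. Psmb10 at 2762 and Psmd5 at 13495 were both the highest of the 48 h vehicle wells, and both were vehicle replicate 1. Without that well the Psmb10 difference of vehicle wells between 48 and 24 h kept its call and the lower Psmd5 at 25 mM lost it. Psme2 at 12938 was the lowest well at 25 mM and 24 h. Psmb9 at 3681 was the highest at 100 mM and 24 h.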

How the results depend on the processing

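The counts of called members kept their size within 1.5 times under the added constant of 1 or 64, the stricter filter, array weights, the array-number block and the median over probe sets. At 100 mM and 24 h, 5 members were called in place of 9 with no filter, with quantile normalisation and with no variance trend. Of the members called with quantile normalisation, 1 was lower in each comparison with vehicle. At 25 mM and 48 h, in place of 11, the count was 7 with no filter, 2 with median centring, 6 with quantile normalisation, 6 with only the compared groups fitted and 7 with no variance trend. At 100 mM and 48 h it was 5 with quantile normalisation in place of 9. For vehicle wells, 48 against 24 h, in place of 9, it was 4 with no filter, 4 with median centring, 4 with only the compared groups and 5 with no variance trend. Leaving out each array gave 6 to 10 members at 25 mM and 5 to 10 at 100 mM after 24 h, 6 to 12 at 25 mM and 8 to 12 at 100 mM after 48 h, and 4 to 10 for the vehicle wells; the comparisons of doses and of times stayed at 0. The count of 5 at 100 mM and 24 h arose without any of vehicle replicates 1, 2 and 4 or DINP replicates 3, 4 and 5, that of 6 at 25 mM and 48 h without DINP replicate 1, the 12 at 48 h without vehicle replicate 1, and that of 4 for the vehicle wells without replicates 1 or 5 at 48 h or 2 or 4 at 24 h. Over single members and settings, 8720 values kept their side of the threshold (535 of them, called neither as reported nor under the setting, changed sign), 206 lost the call, 58 gained it and 3 reversed. The 3 were the median over probe sets for Psmb5 at 100 mM and 24 h (-0.03), for Psmb5 in vehicle wells over time (-0.34) and for Psme1 in vehicle wells over time (-0.08), where a dim second probe set enters. Psmb3 and Psmb4 kept their calls under all 21 alternatives at both doses at 24 h and at 100 mM and 48 h. Median centring moved the median of all genes at 100 mM and 48 h to 0.042, against -0.062 as deposited, and quantile normalisation put it at -0.013 with the members at 0.03.

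For the ratios of immune to constitutive subunits, with alternatives chosen after seeing the data, quantile normalisation gave Psmb10 minus Psmb7 a difference of 0.03 (adjusted p = 0.87) at 100 mM and 24 h, and brought the other dose differences nearer 0, as given with the ratios. Leaving out each array gave Psmb8 minus Psmb5 -0.50 to -0.36 at 25 mM and 48 h, -0.36 to -0.25 at 100 mM and 48 h, and -0.30 to -0.19 in vehicle wells over time, and Psmb10 minus Psmb7 -0.33 to -0.23 at 25 mM and 24 h, in each case with a call for at least 1 array left out. Except where the alternative itself changes the probe sets or arrays used, the cause was not tested. The labels give no replicate numbers to pair wells by. With the rounds of array numbers, which hold each group once, as a block, 8 and 7 members were called after 24 h and 12 and 10 after 48 h at 25 and 100 mM, and Psmb10 and Psmb9 gained the calls given in their paragraph. The deposited signals without detection calls limit what can be said of dim probe sets.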
